A study of Mus musculus with 10 samples.

Results

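Dendritic cells were followed through 10 genes: Flt3, Zbtb46, Xcr1, Clec9a, Batf3, Cd209a, Siglech, Ccr7, Fscn1 and Ccl22. They were chosen by symbol as genes that mark conventional, plasmacytoid and mature dendritic cells, and all 10 were found among the 37417 genes of the count table. In these tumors none of the 10 differed between tumors with and without the Cda guide beyond the spread between animals. The levels of Flt3, Zbtb46, Xcr1 and Clec9a varied together from tumor to tumor, with the highest tumor 2.18-fold to 4.68-fold above the lowest, and both groups held high and low tumors.

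Dendritic cells take up antigen, carry it to lymph nodes and present it to T cells. Conventional dendritic cells grow under Flt3 ligand and fall into type 1 cells (cDC1), which depend on Batf3 and pass antigen of dead cells to CD8+ T cells, and type 2 cells (cDC2), which mainly address CD4+ T cells. Plasmacytoid dendritic cells make type I interferon, and any of these cells that matures gains Ccr7, the receptor that guides it towards the lymph node.

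The 10 tumors grew for 16 days under the skin of C57BL/6J mice, wild type per the labels and 12 weeks old, after injection of Panc02 cells, a mouse pancreatic cancer line. The injected cells of 5 tumors expressed a guide aimed at Cda (sgCda), the gene of cytidine deaminase, which turns cytidine into uridine. Those of the other 5 expressed a nontargeting guide (sgNT). Both lines also held a doxycycline-inducible lentiviral Cas9 and had been selected with blasticidin and puromycin, and doxycycline was withdrawn before the cells were used. The guide acted in the cancer cells only, whereas the host's dendritic cells kept an intact Cda. The labels name separate tumors and do not say whether animals shared a cage or a day. The p values of the group test set the difference between groups against the spread between these 5 and 5 tumors. They take the tumors as independent.

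RNA came from whole tumor tissue, so each value is an average over cancer cells and all host cells. Fewer dendritic cells therefore cannot be told apart from less RNA per dendritic cell in these values. The paper reports that dendritic cells did not change in its sgCda Panc02 tumors, a finding on cells and not on RNA. Assigned counts ran from 28051907 to 39484964 per tumor, and levels are given as CPM, counts relative to library size scaled by trimmed mean of M values. A count of 3 equals 0.0754 to 0.106 CPM. Cda itself stood at 10.1 to 14.7 CPM in sgNT and 7.47 to 12.5 CPM in sgCda tumors, with a log2 fold change of -0.30 (95% confidence interval, CI, -0.67 to 0.064), so the groups overlapped in the targeted gene. The paper found Cda RNA also in endothelial cells and fibroblasts of its mouse tumors, and it checked the loss in the edited lines by RT-qPCR and western blot. The overlap in whole tumors therefore does not measure how well the guide worked. The epithelial keratin Krt18 was read at 157 to 325 CPM in all tumors. One library, sgCda 3, stood apart. Its 3 summed skeletal muscle markers reached 1081 CPM against 0.285 to 266 CPM in the other tumors, and its 5 summed T cell markers 463 CPM against 137 to 318 CPM. The share of counts outside genes was highest in sgCda 4, at 18.8% against 10.5% to 15.3% in the others.

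For the genes that varied together, and for Siglech, which did not vary with them, the RefSeq promoters (GRCm38.p6) show what sequence lies before the gene's start. Printed 5′ to 3′ on the gene's strand are the bases before the start that no annotated exon covers. The windows are chr9:123862030-123862279 for Xcr1, chr5:147400490-147400739 for Flt3 and chr2:181424389-181424638 for Zbtb46, all on the minus strand, and chr7:55767934-55768177 on the plus strand for Siglech. Capitals mark matches to the searched motifs.
Xcr1: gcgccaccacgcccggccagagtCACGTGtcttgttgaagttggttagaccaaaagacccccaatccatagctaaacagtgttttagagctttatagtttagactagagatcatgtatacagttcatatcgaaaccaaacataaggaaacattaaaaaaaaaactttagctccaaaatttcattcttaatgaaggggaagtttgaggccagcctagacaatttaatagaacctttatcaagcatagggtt
Flt3: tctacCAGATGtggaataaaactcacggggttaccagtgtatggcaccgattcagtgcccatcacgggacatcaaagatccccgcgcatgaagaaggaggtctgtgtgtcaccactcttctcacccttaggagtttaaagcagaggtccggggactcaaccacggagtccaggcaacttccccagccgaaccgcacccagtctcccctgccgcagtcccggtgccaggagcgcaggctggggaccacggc
Zbtb46: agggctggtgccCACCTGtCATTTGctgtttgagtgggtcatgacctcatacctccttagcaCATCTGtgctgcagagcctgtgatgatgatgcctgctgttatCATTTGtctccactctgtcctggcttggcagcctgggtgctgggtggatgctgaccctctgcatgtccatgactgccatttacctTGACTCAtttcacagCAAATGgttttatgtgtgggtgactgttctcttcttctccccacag
Siglech: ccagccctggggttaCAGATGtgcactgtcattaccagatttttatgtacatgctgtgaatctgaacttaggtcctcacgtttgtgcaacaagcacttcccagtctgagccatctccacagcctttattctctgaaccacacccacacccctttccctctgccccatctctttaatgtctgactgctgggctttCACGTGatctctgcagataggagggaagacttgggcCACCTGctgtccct
The motifs were searched on both strands in the 250 bases before the start of 9 members, since Ccr7 had no entry, and of 27025 promoters in all. TGANTCA, the core bound by the AP-1 family to which Batf3 belongs, was found before 1 of 9 members, Zbtb46, and before 6.87% of all promoters. CANNTG, the E-box, was found before 7 of 9 members and before 66% of all. GAGGAA was found before Batf3 alone among the members, in a window not printed here, and before 23.1% of all. GAAANNGAA and GGGNNNTTC were found before 0 of 9 members, against 7.16% and 11.8% of all promoters. No match overlapped another in the printed windows. The Zbtb46 start of RefSeq lies inside the gene as GENCODE draws it, and these matches describe letters, not bound sites.

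The genes common to conventional dendritic cells are Flt3, the receptor tyrosine kinase for Flt3 ligand (GRCm38, chr5:147330741-147400489, minus strand), and Zbtb46, a zinc finger transcription factor of conventional dendritic cells and their precursors (chr2:181387762-181459426, minus strand). In sgNT tumors 1 to 5, Flt3 stood at 26.1, 20.8, 18.2, 8.10 and 19.1 CPM, and in sgCda tumors 1 to 5 at 23.3, 35.2, 7.53, 26.2 and 15.7 CPM. The highest and the lowest value both fell in the sgCda group, which enclosed the whole sgNT range. For Zbtb46 the sgNT tumors gave 12.3, 7.55, 8.53, 5.65 and 9.22 CPM and the sgCda tumors 9.51, 12.3, 7.39, 11.4 and 6.58 CPM. The groups overlapped here too, with sgNT 4 lowest and sgCda 2 and sgNT 1 almost level at the top.

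Between the groups, Flt3 went from 18.5 ± 6.54 CPM (SD, n = 5) in sgNT to 21.6 ± 10.5 CPM (SD, n = 5) in sgCda. Its log2 fold change was 0.23, with a standard error (SE) of 0.38 and a CI of -0.61 to 1.06. Zbtb46 averaged 8.66 ± 2.46 and 9.45 ± 2.49 CPM, a log2 fold change of 0.13 (SE 0.23, CI -0.37 to 0.63). Neither differed beyond the spread between tumors, and the interval of Flt3 still holds changes from -34.4% to 109%.

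**Figure D1:**
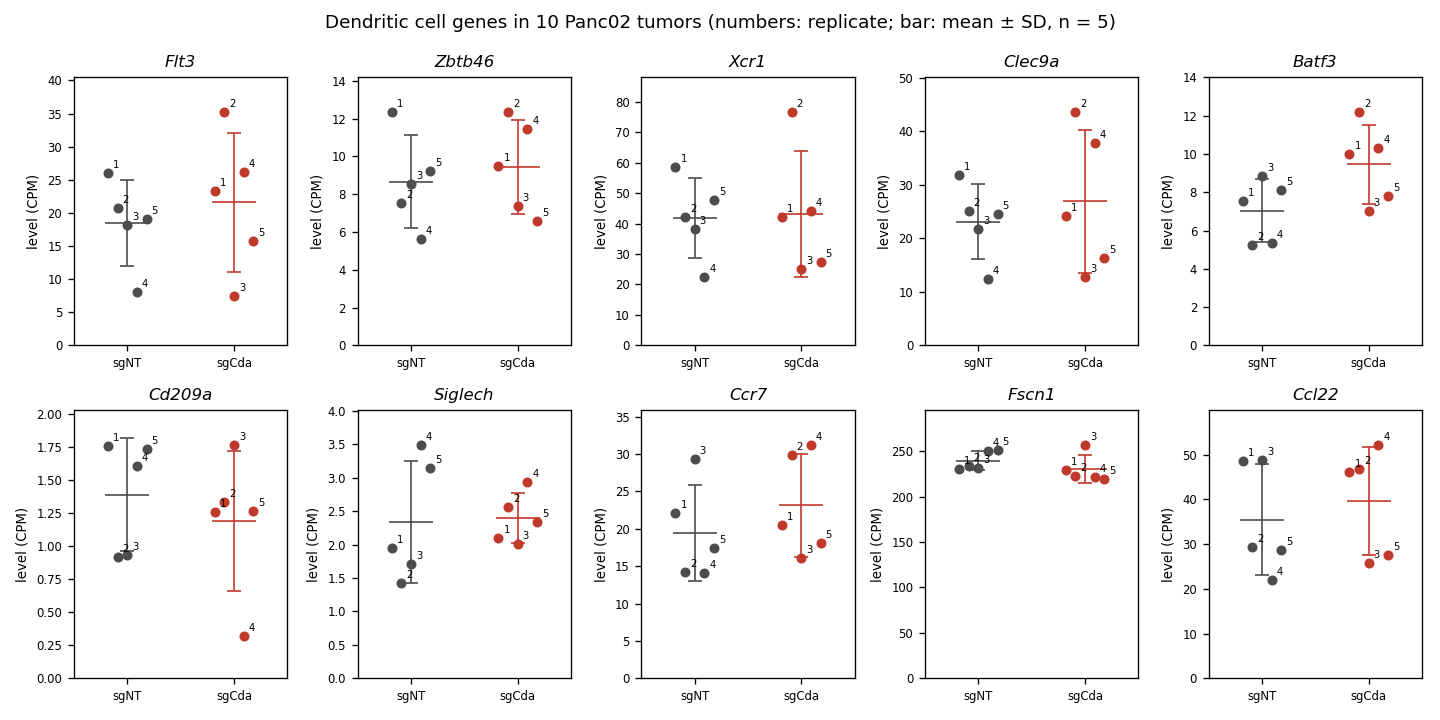
Level of each of the 10 genes (vertical axis, CPM, from 0) in the sgNT and sgCda tumors. Points are tumors with their replicate number, and bars give the mean ± SD (n = 5); the groups overlap in all 10 panels, and sgCda 2 is highest for Flt3, Zbtb46, Xcr1, Clec9a and Batf3.

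Of the cDC1 genes, Xcr1 (chr9:123852315-123862029, minus strand) is the receptor for the chemokine Xcl1, Clec9a (chr6:129408862-129424763, plus strand) is a lectin that binds actin exposed by dead cells, and Batf3 (chr1:191097847-191108945, plus strand) is a basic leucine zipper factor needed to form cDC1. Xcr1 was read at 58.5, 42.2, 38.3, 22.5 and 47.6 CPM in sgNT tumors 1 to 5 and at 42.1, 76.6, 25.0, 44.2 and 27.5 CPM in sgCda tumors 1 to 5. Values above 50 CPM occurred in 1 tumor of each group, sgNT 1 and sgCda 2. Clec9a gave 31.8, 25.1, 21.7, 12.4 and 24.5 CPM in sgNT and 24.1, 43.5, 12.7, 37.7 and 16.3 CPM in sgCda. As for Xcr1, sgCda 2 was highest and sgNT 4 lowest. Batf3 was read at 7.55, 5.24, 8.87, 5.34 and 8.14 CPM in sgNT and at 10.01, 12.2, 6.99, 10.3 and 7.78 CPM in sgCda. Of the 5 sgCda tumors, 3 lay above every sgNT tumor for Batf3, and sgCda 3 and 5 lay within the sgNT range.

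The fold changes of the cDC1 genes ran from near 0 to the largest of the 10. Xcr1 averaged 41.8 ± 13.2 CPM (SD, n = 5) in sgNT and 43.1 ± 20.6 CPM (SD, n = 5) in sgCda, a log2 fold change of 0.043 (SE 0.31, CI -0.65 to 0.74). Clec9a averaged 23.1 ± 7.04 and 26.9 ± 13.4 CPM, a log2 fold change of 0.22 (SE 0.34, CI -0.53 to 0.97). Batf3 averaged 7.03 ± 1.65 and 9.46 ± 2.08 CPM, higher than the sgNT mean in 4 of 5 sgCda tumors. Its log2 fold change of 0.43 (SE 0.20) had an unadjusted p of 0.0528 and an adjusted p of 0.9996 by edgeR's quasi-likelihood test, so it did not pass. Without sgCda 3 the log2 fold change of Batf3 was 0.52, with an unadjusted p of 0.0204 and an adjusted p of 0.819 by the same test. For Xcr1 the sign was not stable: the log2 fold change was -0.27 without sgCda 2 and -0.12 without sgNT 4. Flt3 and Clec9a also lost their sign without sgCda 2, at -0.023 and -0.025. Clec9a shares 184 exonic bases with its neighbour Clec1b on the same strand, and 4.02% of its 50-base stretches occur in that gene too, so its counts may be low.

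Cd209a (chr8:3743397-3748984, minus strand), a lectin of the DC-SIGN family found on cDC2 and on dendritic cells that arise from monocytes, was read near 1 CPM. Its level was 1.75, 0.916, 0.930, 1.60 and 1.73 CPM in sgNT tumors 1 to 5 and 1.25, 1.33, 1.76, 0.319 and 1.27 CPM in sgCda tumors 1 to 5. The value of sgCda 4 rests on 9 counts and lay far below the other 9 tumors, while the highest value was that of sgCda 3. Means were 1.39 ± 0.428 CPM (SD, n = 5) in sgNT and 1.19 ± 0.528 CPM (SD, n = 5) in sgCda, with a log2 fold change of -0.22 (SE 0.38, CI -1.05 to 0.62). Without sgCda 4 it was 0.019, so 1 tumor set the sign.

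Siglech (chr7:55768178-55778925, plus strand), a sialic acid binding lectin of plasmacytoid dendritic cells that some macrophages also carry, gave 1.96, 1.42, 1.71, 3.49 and 3.14 CPM in sgNT tumors 1 to 5. In sgCda tumors 1 to 5 it gave 2.10, 2.56, 2.01, 2.94 and 2.34 CPM, all within the sgNT range. The tumor with the most Siglech, sgNT 4, was the lowest of the 10 for Zbtb46, Xcr1 and Clec9a. Means were 2.34 ± 0.915 CPM (SD, n = 5) and 2.39 ± 0.373 CPM (SD, n = 5), which gives a log2 fold change of 0.027, with an SE of 0.26 and a CI of -0.55 to 0.60. Its sign turned in 4 of the 10 fits that left out 1 tumor (without sgNT 1, sgNT 2, sgNT 3 or sgCda 4).

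The genes of mature dendritic cells split into a pair and a single gene. Ccr7 (chr11:99144196-99155077, minus strand) is the receptor for Ccl19 and Ccl21, and Ccl22 (chr8:94745590-94751699, plus strand) is a chemokine that draws cells with Ccr4, regulatory T cells among them. Fscn1 (chr5:142960343-142973185, plus strand) bundles actin in the veils of mature dendritic cells and is also made by many cancer cells. Ccr7 stood at 22.1, 14.2, 29.3, 14.1 and 17.4 CPM in sgNT and at 20.6, 29.8, 16.1, 31.2 and 18.1 CPM in sgCda. High values above 29 CPM occurred in sgNT 3, sgCda 2 and sgCda 4. Ccl22 was read at 48.6, 29.3, 48.7, 21.9 and 28.6 CPM in sgNT and at 46.1, 46.9, 25.7, 52.1 and 27.5 CPM in sgCda. It fell into 5 tumors above 46 CPM, 2 of them sgNT, and 5 below 30 CPM, with none between. Fscn1, by contrast, was nearly even at 231, 233, 231, 250 and 251 CPM in sgNT and 229, 223, 257, 221 and 220 CPM in sgCda. The tumor that stood highest, sgCda 3, exceeded the lowest 1.17-fold.

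Ccr7 averaged 19.4 ± 6.40 CPM (SD, n = 5) in sgNT and 23.1 ± 6.92 CPM (SD, n = 5) in sgCda, a log2 fold change of 0.25 (SE 0.24, CI -0.28 to 0.79). Ccl22 averaged 35.4 ± 12.4 and 39.6 ± 12.2 CPM, a log2 fold change of 0.16 (SE 0.27, CI -0.42 to 0.75). Fscn1 averaged 239 ± 10.4 and 230 ± 15.3 CPM, a log2 fold change of -0.057 (SE 0.061, CI -0.19 to 0.078). The narrow interval of Fscn1 holds changes from -12.5% to 5.54% only, whereas those of Ccr7 and Ccl22 reach 72.9% and 67.9% upward.

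**Figure D2:**
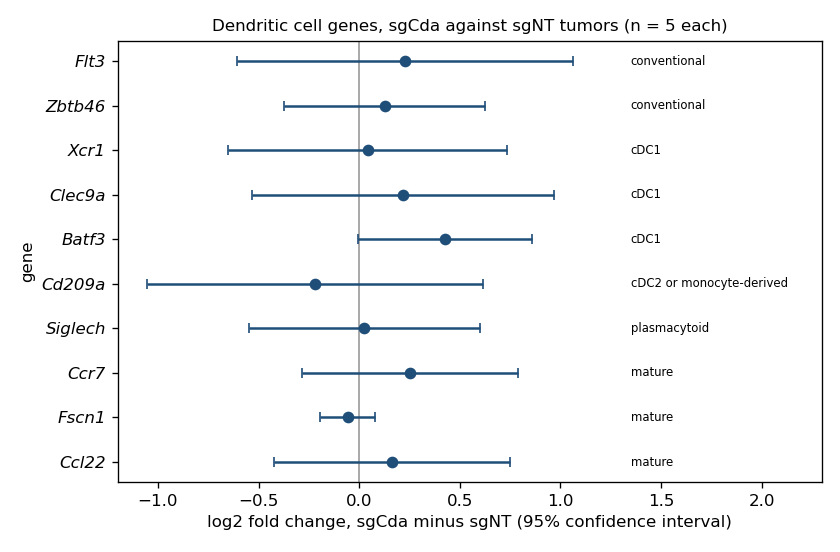
Log2 fold change of the 10 genes, sgCda minus sgNT (horizontal axis), with the gene's role at the right. Points are estimates of edgeR's quasi-likelihood fit and bars their 95% CI (5 tumors per group); all 10 intervals include 0, and that of Fscn1 is the narrowest.

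By count, 0 of 10 members passed an adjusted p of 0.05 (edgeR's quasi-likelihood test with Benjamini-Hochberg adjustment), against 0 of 15299 genes tested, or 0% of them. At an unadjusted p under 0.05 there were 0 of 10 members and 382 genes, or 2.50% of all. In 0 of 10 members did the groups not overlap, against 92 genes, or 0.601% of all. The DESeq2 Wald test and limma-voom also made 0 calls over all genes, with 433 and 317 genes at an unadjusted p under 0.05. All 10 members passed the filter on low counts. Of their log2 fold changes 8 were positive and 2 negative, with a median of 0.14 beside a median of 0.0078 over all genes. Since genes that vary together are not independent, that split is a description.

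Per kilobase of annotated exon, the members spanned from 77.9 to 0.699 CPM per kb on average over the 10 tumors. Fscn1 was highest at 77.9 CPM per kb, and its range (72.9 to 85.2) did not overlap that of any other member. Ccl22 at 16.1, Ccr7 at 10.8, Xcr1 at 9.53, Clec9a at 7.58 and Batf3 at 5.16 CPM per kb followed. Below them came Flt3 at 3.24, Zbtb46 at 1.06, Cd209a at 0.813 and Siglech at 0.699 CPM per kb. From Ccl22 down, each range overlapped the next. Within tumors some neighbours still kept their order: Ccl22 exceeded Ccr7, and Flt3 exceeded Zbtb46, in 10 of 10 tumors, and Xcr1 exceeded Clec9a in 9 of 10. Ccr7 and Xcr1, with Ccr7 higher in 6 of 10 tumors, and Zbtb46 and Cd209a, with Zbtb46 higher in 6 of 10, were the least ordered neighbours. The cDC1 members Xcr1, Clec9a and Batf3 had more RNA per kb than Cd209a and Siglech in these tumors, on this scale. A single gene stands for cDC2 and for plasmacytoid cells here, so the order of genes does not rank the subsets.

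Whether the genes varied together was tested over the 10 tumors on log2 CPM, with Pearson's r, Spearman's rho and a two-sided permutation p for each of 45 pairs of members. All values of 1 tumor come from 1 library and share its scale. Of the 45 pairs, 12 passed an adjusted p of 0.05, and all 12 were positive, with r from 0.76 to 0.95 and adjusted permutation p from 0.00045 to 0.044. The share of pairs that pass among other genes was not computed, so this count is not shown to be particular to dendritic cell genes. The 6 pairs among Flt3, Zbtb46, Xcr1 and Clec9a were all called. Flt3 and Clec9a varied most closely (r = 0.95, rho = 0.95). Their permutation p was 1e-05, the smallest that 100000 resamples can give, and 0.00045 after adjustment. Xcr1 and Clec9a followed (r = 0.94, rho = 0.94, permutation p = 0.00019, adjusted p = 0.00285). The ratio of Xcr1 to Clec9a was 1.81 ± 0.0971 (SD, n = 5) in sgNT tumors, over a range of 1.68 to 1.95. In sgCda tumors it was 1.67 ± 0.296 (SD, n = 5), over a wider range of 1.17 to 1.97, with the lowest ratio in sgCda 4.

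The mature genes Ccr7 and Ccl22 formed a further close pair (r = 0.89, rho = 0.88, permutation p = 0.00123, adjusted p = 0.00922). Whole tumor RNA does not show which cells carried these transcripts. Batf3 was called with Ccr7 (r = 0.86, adjusted permutation p = 0.00971) and with Ccl22 (r = 0.76, adjusted permutation p = 0.044). With the cDC1 genes it stood at r = 0.61 for Xcr1 and r = 0.66 for Clec9a, with adjusted permutation p of 0.112 and 0.0891. Ccl22 was also called with Flt3, Zbtb46 and Clec9a, at r = 0.80, 0.85 and 0.80. Without the 2 tumors farthest from the median, r of the 12 pairs ran from 0.62 to 0.95, and without sgCda 3 from 0.75 to 0.95. With each gene centred on its group mean it ran from 0.80 to 0.95. By rho, 8 of the 12 pairs passed, among them all 6 of Flt3, Zbtb46, Xcr1 and Clec9a. Leaving out 1 tumor kept 9 (without sgNT 4) to 12 of the 12 pairs called, and leaving out sgCda 3 and 4 together kept 6.

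**Figure D3:**
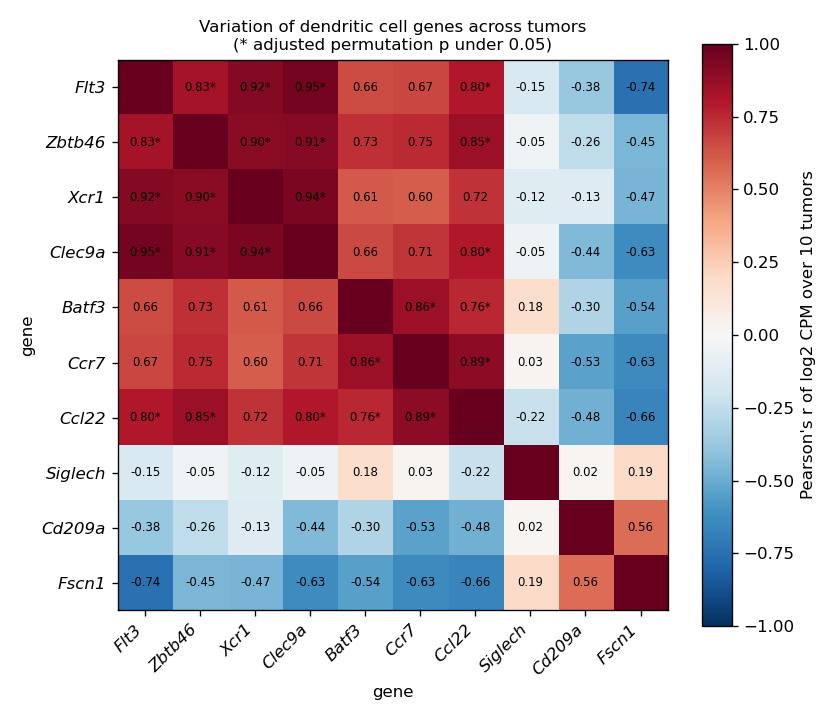
Pearson's r of log2 CPM over 10 tumors for each pair of the 10 genes (color and number), with a star where the adjusted permutation p was under 0.05. Flt3, Zbtb46, Xcr1 and Clec9a form a block of r from 0.83 to 0.95, whereas Siglech lies between -0.22 and 0.19 with all others.

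Siglech, Cd209a and Fscn1 were in none of the called pairs. For Siglech r ran from -0.22 to 0.19 (rho -0.30 to 0.27), for Cd209a from -0.53 to 0.56 (rho -0.53 to 0.53). Fscn1 was negative with Flt3 (r = -0.74, rho = -0.56, permutation p = 0.0157, adjusted p = 0.0501), which did not pass, and r was -0.26 without sgNT 4 and sgCda 3. With 9 and more counts per tumor Cd209a, and with 45 and more Siglech, carried counting errors of 15.2% and 11.3% against 2.65% for Xcr1. Their spread over tumors, a coefficient of variation of 36.2% and 27.9%, exceeded those errors.

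The order of tumors shows the same in places. For the 10 members, sgCda 2 was highest 5 times and sgNT 4 lowest 5 times. Among the highest 3 tumors, sgCda 4 stood for 7 of the 10 members, and sgCda 2 and sgNT 1 for 6 each. sgCda 3 and sgNT 4 were each among the lowest 3 tumors for 7 of the 10 members, and sgCda 5 was for 6 of 10 and among the highest 3 for 0. sgCda 3 was nevertheless highest for Cd209a and Fscn1, and sgNT 4 for Siglech. The library sgCda 3 also held the most skeletal muscle and T cell RNA, as given above, and the part of this in its low dendritic cell values was not tested. Of the 9 wider cDC1 genes, 8 were highest in sgCda 2 and Ifi205 in sgNT 1. The lowest tumor was sgCda 3 for 5 of the 9, and sgNT 3, sgNT 4, sgCda 4 and sgCda 5 for 1 each. The 9 include Xcl1, which NK and T cells make, highest in sgCda 2 and lowest in sgCda 3. Outside the list, sgCda 2 was also highest for the macrophage markers Adgre1 and C1qa, though not for Csf1r, Cd68 or Mrc1. The share of all genes highest in sgCda 2 was not computed. Itgae, an integrin of cDC1 and of resident T cells, was highest in sgCda 2 (71.6 CPM) and lowest in sgCda 3 (13.4 CPM), and Wdfy4, which cDC1 need for cross-presentation, was highest in sgCda 2 (247 CPM) and lowest in sgNT 4 (83.4 CPM). Itgae and Wdfy4 were chosen after their values were seen.

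**Figure D4:**
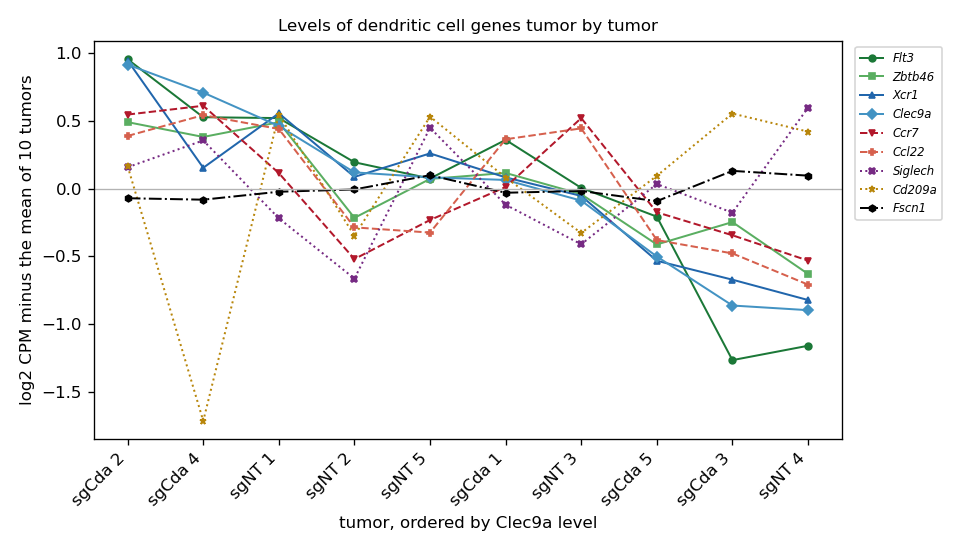
Log2 CPM of 9 of the 10 genes (Batf3 left out for legibility) minus the gene's mean over 10 tumors, with tumors ordered by Clec9a from sgCda 2 to sgNT 4. Flt3, Zbtb46 and Xcr1 (solid lines) fall along with Clec9a, Fscn1 stays flat, and Cd209a has its lowest point in sgCda 4; lines join genes only for reading.

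The ligands and receptors of the members gave fewer relations. Xcl1, the ligand of Xcr1 made by NK and T cells, was read at 12.5, 8.31, 15, 9.89 and 13.4 CPM in sgNT and at 15.9, 17.2, 6.69, 17.1 and 8.61 CPM in sgCda. It was low in sgCda 3, where Xcr1 was low and T cell markers were high, and high in sgCda 2. Over the tumors it gave r = 0.69 with Xcr1 (rho = 0.59, permutation p = 0.0279, adjusted p = 0.24), which did not pass. Ccl17, the other ligand of Ccr4, was read at 21.4, 12.4, 16.6, 5.12 and 9.95 CPM in sgNT and at 22.0, 18.3, 4.90, 12.1 and 12.8 CPM in sgCda. It was lowest in sgCda 3 and sgNT 4, where Ccl22 was lowest too, and gave r = 0.81 with Ccl22 (permutation p = 0.00265, adjusted p = 0.0454). By rho that pair did not pass (0.58, adjusted permutation p = 0.475), and without sgCda 3 and sgNT 4 r was 0.66. Ccr4 stood at 0.790 to 1.52 CPM and gave r = 0.089 with Ccl22 (rho = -0.067, permutation p = 0.807, adjusted p = 0.939). Ccl19, a ligand of Ccr7, had 0 to 9 counts per tumor and was not tested. Flt3l and Ccl21a were not analysed here.

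In the same family of 43 pairs, each member was set beside one marker each of T cells (Cd3e), macrophages (Adgre1), epithelial cells (Krt18) and skeletal muscle (Ckm). Krt18 was negative with 9 of 10 members and called with Xcr1 (r = -0.84, rho = -0.82, permutation p = 0.00289, adjusted p = 0.0454) and Zbtb46 (r = -0.83, rho = -0.87, permutation p = 0.00317, adjusted p = 0.0454). Without the 2 tumors farthest from the median these were -0.70 and -0.74. By rho the adjusted permutation p was 0.123 and 0.089, so neither passed on ranks. Krt18 was 1 of 4 epithelial markers read, and the others were not set against the members. Krt8 and Krt19 were highest in sgCda 5, as Krt18 was. Epcam was highest in sgCda 2 (3.43 CPM) and lowest in sgNT 4 (0.911 CPM), as Xcr1 was. The negative r values are those of Krt18 alone, and a relation of the members to epithelial content was not tested. With Cd3e, Adgre1 and Ckm 0 pairs were called, with r from -0.35 to 0.46, -0.31 to 0.64 and -0.37 to 0.40. For Xcr1 and Clec9a, r with Cd3e was 0.042 and -0.11 (rho -0.067 and -0.079, permutation p 0.909 and 0.761, adjusted p 0.939 for both). Of the 3 pairs called in this family, 1 stayed called without sgCda 3, 2 without sgCda 4 and 0 without any other single tumor.

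A wider list of 52 dendritic cell genes was read the same way. Of these, 50 were found in the table and 47 passed the filter on low counts (Cd209b, Ccl19 and Lamp3 did not). None of the 47 passed an adjusted p of 0.05 by edgeR's quasi-likelihood test, and 1 had an unadjusted p under 0.05, beside the 2.50% of all genes. Of the 47, 27 log2 fold changes were positive and 20 negative, with a median of 0.050. By role, the conventional genes gave 2 positive and 1 negative, the cDC1 genes 5 and 4, the cDC2 or monocyte-derived genes 3 and 6, the plasmacytoid genes 8 and 2, and the mature genes 9 and 7. The medians ran from -0.053 for the cDC2 or monocyte-derived genes to 0.13 for the conventional genes.

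The 2 genes of smallest p in each role give the size of these differences. Among conventional genes they were Id2, a helix-loop-helix inhibitor needed for cDC1 (log2 fold change 0.20, SE 0.15), and Itgax, the integrin CD11c (0.13, SE 0.16). For cDC1 they were Ifi205 (-0.16, SE 0.15) and Rab7b (0.063, SE 0.10). In the plasmacytoid list, Tcf4, the E protein that directs plasmacytoid dendritic cells and is also made by many stromal cells, had the smallest p. It stood at 119, 121, 107, 107 and 114 CPM in sgNT and at 149, 131, 114, 193 and 148 CPM in sgCda. In 4 of 5 sgCda tumors it lay above every sgNT tumor, and sgCda 3 lay within the sgNT range. Its log2 fold change was 0.37 (SE 0.12), with an unadjusted p of 0.0105 and an adjusted p of 0.9996 by edgeR's quasi-likelihood test, so it did not pass. Siglech, the plasmacytoid member, stood at 0.027 in the same test. Cox6a2, a respiratory chain subunit of plasmacytoid dendritic cells and of muscle, followed at 1.45 (SE 0.85), with its highest level of 19.4 CPM in sgCda 3, the tumor with the most muscle RNA.

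Of the mature list, Samsn1, an adaptor protein of immune cells, averaged 22.7 ± 4.02 CPM (SD, n = 5) in sgNT and 27.3 ± 3.31 CPM (SD, n = 5) in sgCda, a log2 fold change of 0.27 (SE 0.12). Ccr4 followed at 0.31 (SE 0.19). Xcl1 and Ccl17, the ligands, gave 0.15 (SE 0.27) and 0.10 (SE 0.41). None of these passed by either p.

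The cDC2 list held the paralogs of Cd209a, which lie near it on chromosome 8. Cd209c gave a log2 fold change of 0.11 (SE 0.22), Cd209d -0.31 (SE 0.39) and Cd209e -0.33 (SE 0.73). Cd209f (-0.53, SE 0.57) and Cd209g (-0.44, SE 0.51) had the smallest p of this role. They share 29.8% and 16.6% of their 50-base stretches with each other, so their counts are uncertain, and Cd209c shares 11.6% with other genes. Cd209a shared 0% of its stretches with any other gene by exact match, and reads aligned with mismatches were not examined. All of the paralogs were low, with no more than 4.68 CPM in any tumor, a value of Cd209c in sgCda 4. Of the 10 genes of the cDC2 list, 7 were lowest in sgCda 4, the tumor in which Cd209a was lowest, among them Cd209d (0.248 CPM). Cd209b and Cd209f were lowest in sgCda 5, and Cd209c was highest in sgCda 4 and lowest in sgCda 2 (2.09 CPM). Outside the list, the macrophage markers Adgre1 and Csf1r were also lowest in sgCda 4, though not Cd68, Mrc1 or C1qa. The share of all genes lowest in sgCda 4 was not computed. This library also had the highest share of counts outside genes, as given above, and the part of this in its low values was not tested. Clec10a and Mgl2, lectins of cDC2 and macrophages, stood at 1.56 and 3.68 CPM in sgCda 4 against highest values of 26.7 and 18.8 CPM. Clec10a and Mgl2 were chosen after their values were seen.

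The genes most like each member over the 10 tumors were sought among 13269 genes with a mean log2 CPM of at least 0. Closest to Flt3 was Cldn1 (r = 0.98), to Zbtb46 Slc25a45 (r = 0.95), to Xcr1 Wdr86 (r = 0.98) and to Clec9a Icosl (r = 0.97). Slc25a45 was also among the 3 closest to Xcr1 (r = 0.96) and to Clec9a (r = 0.97). Batf3 was closest to Gm2a (r = 0.94) and Ccr7 to Tmem35b (r = 0.97), and Tmem14a was among the 3 closest to both (r = 0.92 with Batf3 and 0.94 with Ccr7). Ccl22 was closest to Rnf34 (r = 0.96), Cd209a to Srpx2 (r = 0.97) and Fscn1 to Dysf (r = 0.95). The 3 closest to Siglech were Ms4a2 (r = 0.91), Cpa3 (r = 0.90) and Cd200r3 (r = 0.89). These r values are the highest of a search over many genes and 10 tumors, so they are a description and carry no p.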

How the data were processed

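Bulk RNA sequencing was done on 10 tumors, 5 per group, with groups and replicate numbers taken from the titles. The authors made stranded libraries of polyadenylated tumor RNA and read 50 bases per fragment. They aligned trimmed reads to GRCm38 (mm10) with TopHat and Bowtie (Bowtie2 and FastQC 0.11.5 stand in the submitters' processing notes) and counted per Ensembl gene with HTSeq. Its strand setting and annotation release were not given in the sources used here. The values are raw counts as the authors deposited them, not normalized. HTSeq leaves out reads that fit several places or genes, which lowers counts of near-identical or overlapping genes.

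The 5 summary lines were removed. A table of gene names gave symbols for 32608 of 37417 identifiers. Genes were filtered with filterByExpr (minimum count 10, minimum total 15), scaled by trimmed mean of M values and tested with edgeR's quasi-likelihood test (edgeR 4.0.16, R 4.3.3; 15299 genes, Benjamini-Hochberg adjustment over all), with no covariate. Each SE is the fold change divided by the root of its F statistic. Correlations used log2 CPM (prior count 2) and 100000 resamples (SciPy 1.17.1), adjusted within 45 pairs of members and within 43 pairs of members with partners and markers. Exon lengths and positions came from GENCODE M21 (GRCm38), promoters from RefSeq. The 50-base stretches were counted in the GENCODE transcripts. Scripts were tested on simulated data.

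The members and lists were chosen with earlier results of these data known. Named were the members, their ligands and receptors, the Cd209a paralogs, the 2 genes of smallest p in each role of the wider list and the 3 genes most like each member. Alternatives were DESeq2 size factors, library totals, 2 other filters, the DESeq2 Wald test (DESeq2 1.42.0), limma-voom (limma 3.58.1), a replicate block, leaving out the 20 most counted genes, leaving out each tumor in turn, and sgCda 3 and 4 together, and for correlations a prior count of 0.5, centring on the group and Spearman's rho. Assigned counts per tumor ran from 28051907 to 39484964. Floors of 3 counts cover counting error only. Replicates of a group differed beyond sampling noise, so none was counted as a duplicate.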

Additional observations from a re-analysis of the deposited data

Results flagged for a closer look

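Among 26 sets of 5 values checked for a tumor far from the rest of its group, 2 stood out, where 1.3 are expected by chance at 1 in 20. Cd209a in sgCda 4 was at -1.40 log2 CPM, from 9 counts, while the other sgCda tumors lay between 0.39 and 0.87. Fscn1 in sgCda 3 was at 8.003 log2 CPM, while the other sgCda tumors lay between 7.78 and 7.84.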

How the results depend on the processing

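Under each of 19 alternatives 0 genes passed an adjusted p of 0.05, so 0 members and 0 genes of the wider list passed. The number of genes at an unadjusted p under 0.05 was 382, and 830 with the filter of 1 count in any tumor. Without 1 tumor it ran from 280 to 747, the highest being without sgCda 3. Of 189 member fold changes recomputed, 177 had the sign of the reported one and 12 had the other. Xcr1 turned to -0.0071 with limma-voom and to -0.016 with the replicate block, and Siglech to -0.0090 without sgCda 3 and 4. Leaving out 1 tumor gave log2 fold changes of -0.27 to 0.19 for Xcr1, -0.11 to 0.21 for Siglech, -0.023 to 0.44 for Flt3, -0.025 to 0.40 for Clec9a and -0.40 to 0.019 for Cd209a. The cause was not tested. Batf3 had an unadjusted p under 0.05 in 8 alternatives, from 0.0204 to 0.0481, with adjusted p of at least 0.819 by the same tests. Cd209a gave no value where every tumor had to hold 10 counts or more. The 12 called pairs of members became 19 with levels centred on their group, 12 of the 12 among them, and 6 of the 12 without sgCda 3 and 4; without 1 tumor there were 9 (without sgNT 4) to 19 (without sgNT 2). The 3 called pairs with partners became 0 with Spearman's rho and 0 to 2 without 1 tumor. The replicate numbers recur in both groups, and deviations of same-numbered tumors correlated at -0.028, -0.024, 0.33, -0.43 and 0.34. These 5 values cannot tell whether same-numbered tumors shared a cage or a day, which the labels do not state. With the block 0 genes passed and 325 had an unadjusted p under 0.05, and 2 of 5 sgNT tumors were most like the sgCda tumor of their own number. Depth limits Cd209a and Siglech most, with 9 to 69 and 45 to 125 counts per tumor.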

Other observations

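Some ratios between members varied less over the tumors than the members did. Ccl22 over Ccr7 was 1.82 ± 0.287 (SD, n = 5) in sgNT and 1.72 ± 0.295 (SD, n = 5) in sgCda tumors, and Flt3 over Clec9a was 0.785 ± 0.0760 and 0.806 ± 0.165. In sgCda 4, where the ratio of Xcr1 to Clec9a was lowest, Clec9a was the second highest of 10 tumors and Xcr1 the fourth. Siglech over Flt3 spanned 6.29-fold, from 0.0684 in sgNT 2 to 0.430 in sgNT 4.

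Lamp3, a marker of mature human dendritic cells, had 0 or 1 count in each of the 10 tumors, while Ccr7 had 449 to 1096 and Ccl22 697 to 1723 counts in the same libraries.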
